A study of Mus musculus with 12 samples.

Results

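The clustered histone genes were followed in back skin of mice treated with minoxidil (MXD), with a cell extract of the cactus Notocactus ottonis (N-CE) or with vehicle (VC). Members were the genes whose name on the array starts with Hist1h, Hist2h, Hist3h or Hist4h. There were 38 of them, read by 45 probes, among 27373 gene names and 41174 probes on the array. They comprised 6 linker (H1) genes with 7 probes and 32 core genes with 38 probes, and the core genes were 12 of H2A, 11 of H2B, 3 of H3 and 6 of H4. Male C57BL/6J mice, 8 weeks old, were shaved, and from the next day 200 µL of MXD at 3%, N-CE at 10% or VC (a mixture of propylene glycol, ethanol and water) was spread on the back every day. Whole back skin was taken at 1W, 2W and 3W (weeks of treatment), and the RNA of 6 mice was combined into 1 pool for each group and week. On 2 two-colour arrays, the RNA of a treated pool competed with that of the same week's VC pool, with the dyes Cy5 and Cy3 exchanged on the second array (a dye swap). The 12 arrays thus gave 6 comparisons, named MXD 1W to N-CE 3W, and the MXD and N-CE comparisons of a week shared 1 VC pool.

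Histones are the proteins around which DNA is wound. Core histones H2A, H2B, H3 and H4 form the nucleosome body, and the linker histone H1 binds where the DNA enters and leaves it. Most clustered histone genes are expressed while a cell copies its DNA in S phase, and their mRNAs end in a stem-loop in place of a poly(A) tail. Some of them can also be made with a poly(A) tail. In skin, the matrix of the growing hair follicle is a site of rapid cell division. The labelling kit named in the labels starts its copies from poly(A) tails, so the arrays may see only part of each histone mRNA, and how large a part was not measured. In whole tissue, fewer cells of a type and less RNA per cell cannot be told apart.

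Each value below is a log2 fold of treated over VC, the mean of the 2 arrays of a dye swap, and its SD describes the spread between these arrays, not between mice. With 1 pool in each group there is no replicate check, and no test across samples was possible. A gene was said to be called, higher or lower, where both arrays pointed the same way with a P under 0.01 by the scanner software's error model, and where the mean fold was above 1.5 or below 0.75. Only genes well above background in both groups, on at least 1 array each, were tested and entered the counts. Each array held 43379 transcript spots, of which between 57.0% and 69.6% were well above background in a channel, and 0 were saturated. The number of arrays limits the precision of all values. The 4 arrays of a week lay on 1 slide, so week and slide cannot be told apart, while treated and VC RNA always met on the same array. The skin markers Krt5, Krt14, Krt1, Lor, Col1a1 and Col1a2 were well above background in both groups of all 6 comparisons, and so was Krt10 except in MXD 1W, where its spots were marked as outliers on both arrays.

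The probes decide what can be said of a single histone gene, and examples are shown first. Their mm9 coordinates are those that the array files give, and the sequences run 5′ to 3′ in the direction of the mRNA. Capitals mark the longest stretch that a probe had in common with a probe of another clustered histone gene. The 7 linker probes had between 7 and 11 such bases of 60, so none had a long stretch in common with another member probe. The probes were not compared with whole transcripts, so what else they may read was not tested. The linker probes that differed most between treated and VC pools were these.
Hist1h1a (chr13:23855888-23855947, plus strand): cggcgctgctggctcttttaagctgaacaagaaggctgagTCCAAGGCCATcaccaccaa
Hist1h1b (chr13:21871923-21871982, minus strand): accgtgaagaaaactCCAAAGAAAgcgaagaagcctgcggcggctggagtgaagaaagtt
Hist1h1d (chr13:23647452-23647511, plus strand): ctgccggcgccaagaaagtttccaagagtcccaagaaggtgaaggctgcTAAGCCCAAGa
Hist1h1e (chr13:23713707-23713766, minus strand): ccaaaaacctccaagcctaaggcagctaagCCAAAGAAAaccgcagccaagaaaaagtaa
Among the core probes, 14 of 38 had at least 20 bases in common with a probe of another gene, always of the same class. Of the 38, 17 were annotated with more than 1 RefSeq transcript, among them those of Hist1h3d and Hist2h3c1 and the brighter Hist2h2ac probe. The signal of such a probe may also come from more than 1 gene. The H2A probes below lie at or just after the start of the coding sequence. Those of Hist1h2ak and Hist1h2ai matched at 55 of 60 bases (91.7% identity), whereas those of Hist1h2ak and Hist2h2aa1 matched at 47 of 58 (81.0% identity). They are shown because the first 3 genes moved together and Hist2h2aa1 did not move with them. The Hist1h2af probe shown is the dimmer one. Set values and calls given below for this gene are those of its brighter probe, 308 bases away.
Hist1h2ak (chr13:21845637-21845696, minus strand): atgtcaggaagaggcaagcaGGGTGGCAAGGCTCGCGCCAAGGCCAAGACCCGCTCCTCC
Hist1h2af (chr13:23625800-23625859, plus strand): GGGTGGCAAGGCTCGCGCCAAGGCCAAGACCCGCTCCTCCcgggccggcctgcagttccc
Hist1h2ai (chr13:21879028-21879087, minus strand): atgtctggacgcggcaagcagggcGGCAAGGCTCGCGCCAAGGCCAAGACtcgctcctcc
Hist2h2aa1 (chr3:96049502-96049561, plus strand): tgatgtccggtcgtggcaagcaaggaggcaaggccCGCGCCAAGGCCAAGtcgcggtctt
The next probes show the same for H4 (the first 3 lines) and H2B (the last 2 lines), where runs of up to 52 of 60 bases were identical between genes.
Hist1h4d (chr13:23673665-23673724, plus strand): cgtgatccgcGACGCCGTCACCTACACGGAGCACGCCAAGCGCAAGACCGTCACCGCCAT
Hist1h4f (chr13:23643249-23643308, minus strand): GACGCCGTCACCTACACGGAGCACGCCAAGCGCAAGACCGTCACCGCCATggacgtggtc
Hist2h4 (chr3:96066953-96067012, minus strand): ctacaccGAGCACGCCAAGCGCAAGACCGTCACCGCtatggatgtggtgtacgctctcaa
Hist1h2bk (chr13:22127928-22127987, plus strand): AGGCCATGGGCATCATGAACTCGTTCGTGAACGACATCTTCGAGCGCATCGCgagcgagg
Hist1h2bm (chr13:21814139-21814198, plus strand): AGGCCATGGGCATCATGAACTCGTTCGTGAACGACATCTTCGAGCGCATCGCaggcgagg
Values of such genes are given mostly as those of a set, and a value printed under 1 of their names is that of the probe, since the signal cannot be assigned to 1 gene. The probe of Hist1h3a held the whole stem-loop of a histone mRNA, shown with its stem in capitals and its loop in lower case.
Hist1h3a stem-loop: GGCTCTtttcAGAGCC
It was the only probe of the array with this sequence of 16 bases. The Hist1h2ab probe ended inside the same element, with 15 bases in common with the Hist1h3a probe, and had no stretch of 20 bases in common with any other member.

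All 38 genes were matched to a current RefSeq name, 33 by accession and 5 by synonym, and 2 of them (Hist1h2al and Hist3h2bb-ps) are listed as transcribed pseudogenes. By mm9 position, 27 genes lay on chromosome 13, 6 on chromosome 3, 3 on chromosome 11 and 1 on chromosome 6, and the Hist1h2bp probe was unmapped. Promoters from RefSeq (GRCm38.p6) were given for 32 of the genes as 33 windows of 300 bases. They were searched on both strands for 4 exact motifs, none of which contains another. The CCAAT motif was in 6 of 6 linker windows and 24 of 27 core windows, beside 37.4% of all 32544 windows. The motif TATAAA, near which transcription of many genes starts, was in 4 of 6 linker and 16 of 27 core windows, beside 13.6% of all. The H1 box, known from linker histone promoters and searched as AAACACA, was in 5 of 6 linker windows and 4 of 27 core windows, beside 7.2% of all. The octamer, known from H2B promoters and searched as ATTTGCAT, was in 0 of 6 linker windows, 6 of 11 H2A windows and 5 of 9 H2B windows, beside 1.75% of all. The windows of 2 pairs of member genes overlapped, so these counts are not independent. The 150 bases before the start are shown for 5 linker genes, with the motifs on either strand in capitals, because 4 of these genes were called and Hist1h1c was not.
Hist1h1a promoter (chr13:23763518-23763667, plus strand): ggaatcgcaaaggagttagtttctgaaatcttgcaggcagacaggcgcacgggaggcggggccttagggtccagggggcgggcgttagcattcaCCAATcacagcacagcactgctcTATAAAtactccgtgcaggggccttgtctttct
Hist1h1b promoter (chr13:21780626-21780775, minus strand): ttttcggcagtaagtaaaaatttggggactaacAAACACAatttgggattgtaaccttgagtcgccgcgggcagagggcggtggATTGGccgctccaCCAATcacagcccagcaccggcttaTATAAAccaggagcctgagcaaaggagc
Hist1h1c promoter (chr13:23738657-23738806, plus strand): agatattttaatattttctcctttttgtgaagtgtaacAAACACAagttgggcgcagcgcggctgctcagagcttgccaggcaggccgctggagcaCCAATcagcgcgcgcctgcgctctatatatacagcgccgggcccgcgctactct
Hist1h1d promoter (chr13:23554882-23555031, plus strand): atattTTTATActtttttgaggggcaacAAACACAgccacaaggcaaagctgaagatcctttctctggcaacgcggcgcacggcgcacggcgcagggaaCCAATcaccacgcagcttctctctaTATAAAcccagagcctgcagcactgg
Hist1h1e promoter (chr13:23622559-23622708, minus strand): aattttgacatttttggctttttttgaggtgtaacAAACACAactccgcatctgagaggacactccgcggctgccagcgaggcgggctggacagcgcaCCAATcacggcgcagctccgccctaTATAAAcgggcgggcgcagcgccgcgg
An H1 box stood before Hist1h1b, Hist1h1d and Hist1h1e and also before Hist1h1c, and no H1 box was found before Hist1h1a. The H1 box letters therefore did not separate the called linker genes from Hist1h1c. TATAAA was in the windows of the 4 called genes and not in that of Hist1h1c. Whether this bears on their calls was not tested. A match is a description of letters, not evidence of binding.

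Over the 6 comparisons, the largest shifts of the clustered histones were upward in MXD 2W and downward in N-CE 1W. In MXD 1W, 5 of 30 tested genes were called higher and 0 lower, while 1.25% of all tested gene names were called higher and 1.31% lower. In MXD 2W, 15 of 30 were called higher and 0 lower, beside 6.49% and 10.6% of all names. In MXD 3W, 2 of 29 were called higher and 0 lower, beside 0.285% and 0.285%. In N-CE 1W the direction was the opposite. There, 10 of 28 were called lower and 0 higher, beside 2.73% of all names called lower and 0.575% called higher. In N-CE 2W, 0 of 31 were called in either direction, beside 0.123% called higher and 0.0784% called lower. Without the P criterion the count remained 0, beside 149 of 17855 names higher and 338 lower. In N-CE 3W, 7 of 29 were called higher and 0 lower, beside 0.227% and 0.216%. Genes whose probes had at least 20 bases in common with another member made up 3 of the 5 calls in MXD 1W, 9 of 15 in MXD 2W, 0 of 2 in MXD 3W, 5 of 10 in N-CE 1W and 4 of 7 in N-CE 3W, so the counts hold fewer independent signals than genes. On the array with the treated pool in Cy3 alone, 8 genes were called higher in MXD 1W, beside 418 of 17539 names, and 21 in MXD 2W, beside 1785 of 17474. On that array 6 were called higher in MXD 3W, beside 112 of 16793, and 13 in N-CE 3W, beside 179 of 17113. In N-CE 1W it gave 16 called lower, beside 730 of 17039. In N-CE 2W each array alone gave 2 genes called higher, beside 229 of 17794 names in Cy5 and 336 of 17850 in Cy3. With a fold of 2 in place of 1.5, 6 were called higher in MXD 2W, beside 529 of 17488 names, and 8 lower in N-CE 1W, beside 271 of 17051. The counts called higher were then 0 in MXD 1W (81 of 17543 names), 0 in MXD 3W (16 of 16813) and 0 in N-CE 3W (7 of 17165).

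**Figure D1:**
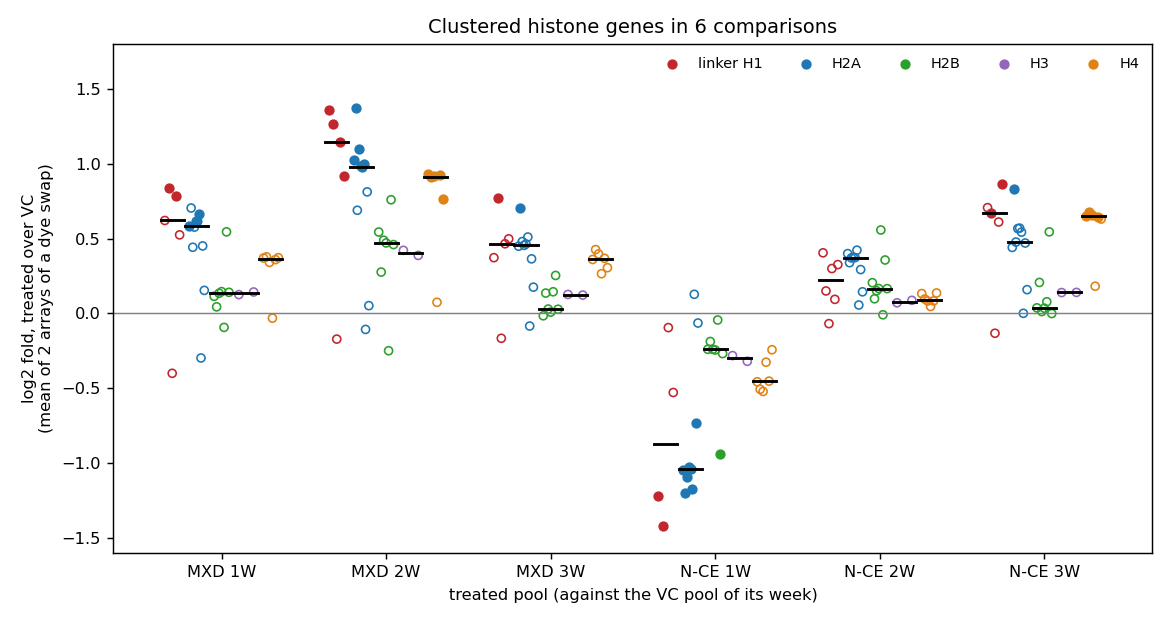
Log2 fold of treated over VC (vertical axis, mean of the 2 arrays) for each clustered histone gene well above background in both groups, by comparison (horizontal axis) and class (colour). Filled points are called genes, open points are not called, and black lines are class medians. In MXD 2W the medians of linker, H2A and H4 genes are 1.15, 0.98 and 0.91, with Hist1h1c (-0.17) and Hist2h2aa1 (-0.11) below 0. In N-CE 1W the medians of linker and H2A genes are -0.87 and -1.04, with Hist2h2aa1 (0.13) above 0.

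The linker medians lay farther from 0 than the core medians in the values as deposited, but their order depended on the background correction. In MXD 1W the linker median was 0.62 (array medians 0.69 and 0.65, 5 genes) and the core median 0.36 (0.30 and 0.28, 25 genes). In MXD 2W they were 1.15 (0.87 and 1.04) and 0.76 (0.38 and 0.85), and in MXD 3W 0.47 (0.26 and 0.67) and 0.29 (0.26 and 0.30). Each median is taken over genes separately, so a median of means lies outside its array medians in several places, among them both medians of MXD 1W and the linker median of MXD 2W. In N-CE 1W the linker median was -0.87 (array medians -0.58 and -1.09, 4 genes) and the core median -0.39 (-0.34 and -0.60, 24 genes). In N-CE 2W they were 0.22 (0.38 and -0.04) and 0.15 (0.24 and 0.26), and the linker medians of the 2 arrays had opposite signs. In N-CE 3W they were 0.67 (0.61 and 0.64) and 0.46 (0.36 and 0.49). With normexp background correction and loess, the linker median was 0.39 in MXD 1W, 0.79 in MXD 2W and -0.48 in N-CE 1W, where the core medians were 0.35, 0.64 and -0.40. With the same correction the linker median was below the core median in MXD 3W (0.15 and 0.24), N-CE 2W (0.11 and 0.14) and N-CE 3W (0.33 and 0.44). In MXD 2W 27 of the 30 tested members were above 0, and in N-CE 1W 1 of 28 was, namely Hist2h2aa1. The median over all tested gene names lay between -0.00 and 0.03 in the 6 comparisons.

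Among the linker genes, Hist1h1b (now H1f5) was called in 5 of the 6 comparisons. Its log2 folds on the arrays with the treated pool in Cy5 and in Cy3 were 0.69 and 0.98 in MXD 1W, 0.77 and 1.76 in MXD 2W, and 0.67 and 0.87 in MXD 3W. In N-CE 1W they were -1.51 and -1.33, in N-CE 2W 0.10 and 0.20, and in N-CE 3W 0.61 and 0.73. The gene was therefore higher in all MXD pools and in the N-CE pool of 3W, lower in the N-CE pool of 1W, and close to VC at 2W of N-CE. Behind the N-CE 1W values stood processed signals of 244 and 265 in the N-CE pool and of 696 and 665 in the VC pool. In MXD 2W the signals were 2095 and 3066 in the MXD pool against 1230 and 905 in the VC pool. The same VC pool gave 2082 and 1464 on the N-CE arrays of 2W. After centring on all names, its log2 difference of MXD minus N-CE arrays was -1.06 for this gene.

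Hist1h1a (now H1f1) was called higher in MXD 2W and lower in N-CE 1W. Its values were 0.96 and 1.76 in MXD 2W (mean 1.36, SD 0.57) and -0.95 and -1.49 in N-CE 1W (mean -1.22, SD 0.38). The probe was dim, with processed signals in N-CE 1W of 51 and 48 for N-CE against 99 and 134 for VC. With normexp and loess the means were 0.85 in MXD 2W and -0.45 in N-CE 1W. Hist1h1a stood at 0.62 ± 0.16 (SD, 2 arrays) in MXD 1W, 0.40 ± 0.02 in N-CE 2W and 0.71 ± 0.09 in N-CE 3W, none of which was called. In MXD 3W its arrays disagreed, with -0.08 and 0.82.

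Hist1h1d (now H1f3) was called higher in MXD 1W, at 0.92 and 0.65, and in MXD 2W, at 1.26 and 1.04. With normexp and loess its means were 0.38 in MXD 1W and 0.59 in MXD 2W. In N-CE 1W its brighter probe, shown above, was well above background on both arrays for VC and on neither for N-CE, so the fold is a bound. This bound sets the VC mean against the higher, on each array, of the N-CE signal and the dimmest signal well above background, and by it Hist1h1d was at least 1.30-fold lower in N-CE 1W. Its other values were 0.47 ± 0.30 in MXD 3W, 0.30 ± 0.34 in N-CE 2W and 0.61 ± 0.01 in N-CE 3W, without a call.

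Hist1h1e (now H1f4) was called higher in MXD 2W, at 0.87 and 0.97, and in N-CE 3W, at 0.93 and 0.80. In N-CE 1W its arrays gave -0.21 and -0.84, the same direction as Hist1h1a and Hist1h1b, without a call. It was at 0.52 ± 0.43 in MXD 1W, 0.50 ± 0.04 in MXD 3W and 0.09 ± 0.40 in N-CE 2W.

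Hist1h1c (now H1f2) had smaller values than the 4 linker genes above. Its mean was -0.40 ± 0.05 in MXD 1W, -0.17 ± 0.12 in MXD 2W, -0.17 ± 0.09 in MXD 3W, -0.10 ± 0.05 in N-CE 1W, -0.07 ± 0.12 in N-CE 2W and -0.13 ± 0.07 in N-CE 3W, and it was called in 0 comparisons. All 6 means were below 0. It was the lowest of the detected linker genes in 5 comparisons and the highest of them in N-CE 1W. Its processed signals lay between 7906 and 17462 in every channel. Hist1h1t (now H1f6), the linker histone of male germ cells, was well above background in both groups only in N-CE 2W, where its arrays gave 0.80 and -0.14.

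**Figure D2:**
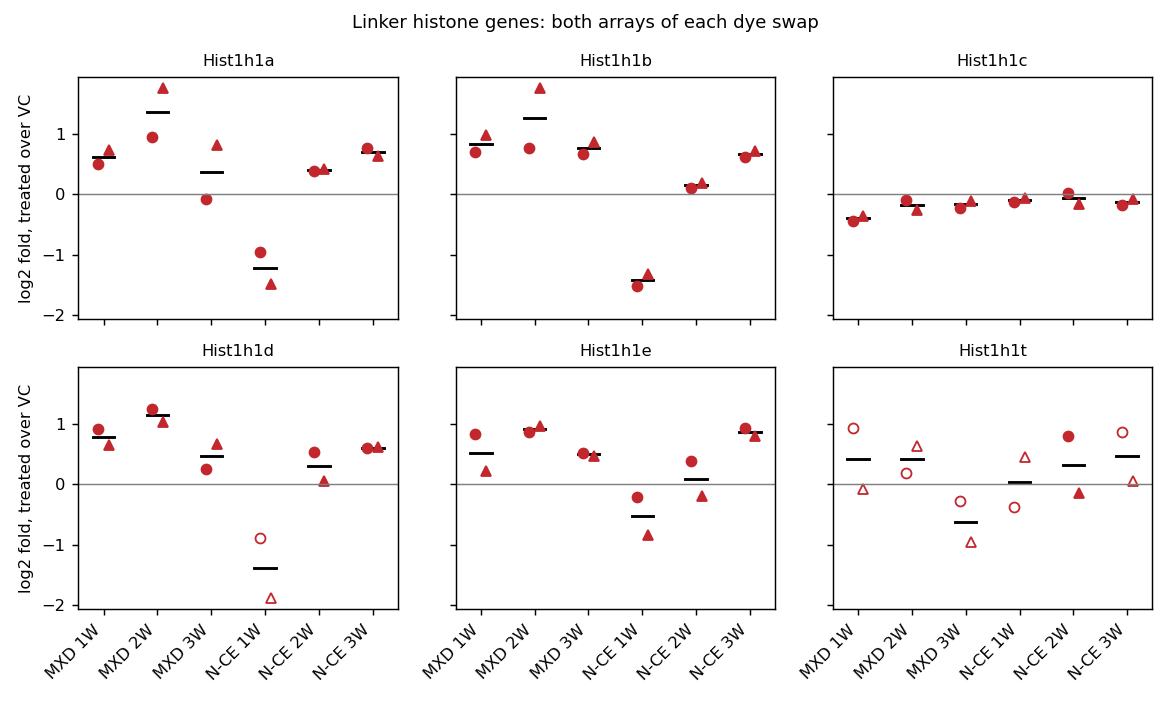
Log2 fold of treated over VC (vertical axis) of the 6 linker histone genes in each comparison (horizontal axis). Circles are the array with the treated pool in Cy5, triangles the array with it in Cy3, lines their mean, and open symbols genes not well above background in both groups. Hist1h1a and Hist1h1b lie above 0 in MXD 2W (means 1.36 and 1.26) and below 0 in N-CE 1W (-1.22 and -1.42), and Hist1h1c stays between -0.44 and 0.02 on all 12 arrays.

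H2A, the core histone whose tail carries a main ubiquitination site, had the core class medians farthest from 0 in MXD 2W (0.98) and N-CE 1W (-1.04), whereas in N-CE 3W the H4 median of 0.65 was above the H2A median of 0.48. The probes that gave the values of the set Hist1h2aa, Hist1h2af, Hist1h2ai, Hist1h2ak and Hist1h2ao formed separate groups. Those of Hist1h2aa, Hist1h2af and Hist1h2ao had at least 20 bases in common, as had those of Hist1h2ai and Hist1h2ak, but not across the groups. The set had means between 0.58 and 0.66 in MXD 1W, 0.97 and 1.1 in MXD 2W, and 0.45 and 0.51 in MXD 3W. In N-CE 1W they lay between -1.17 and -1.03, in N-CE 2W between 0.37 and 0.42, and in N-CE 3W between 0.44 and 0.57. All 5 genes were called higher in MXD 2W and lower in N-CE 1W, and Hist1h2aa, Hist1h2ai and Hist1h2ao were also called higher in MXD 1W, at 0.59 ± 0.05, 0.62 ± 0.10 and 0.66 ± 0.12. On the single arrays of N-CE 1W the set stood between -1.17 and -0.96 with N-CE in Cy5 and between -1.23 and -1.04 with N-CE in Cy3. On those of MXD 2W it stood between 0.78 and 1.11 and between 1.09 and 1.23.

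Hist1h2ab, whose probe lies at the stem-loop end of the mRNA, was called in 4 comparisons. It was at 1.22 and 1.52 in MXD 2W (mean 1.37, the highest of all members), 0.78 and 0.64 in MXD 3W, 0.86 and 0.80 in N-CE 3W, and -0.88 and -1.52 in N-CE 1W. Its processed signals in N-CE 1W were 1883 and 1565 for N-CE against 3456 and 4490 for VC, and in MXD 2W 13811 and 15555 for MXD against 5922 and 5408 for VC. In MXD 1W it had 0.94 and 0.47 and in N-CE 2W 0.62 and 0.06, without a call.

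Hist2h2ac was called lower in N-CE 1W at -0.74 ± 0.02. In MXD 2W the spot of its brighter probe was marked as an outlier on 1 array, so that only the value of 0.81 from the other array remained, and its other probe was called higher there at 0.87 ± 0.03. Hist2h2aa1 did not follow the other H2A genes. Its means were -0.30 ± 0.02 in MXD 1W, -0.11 ± 0.17 in MXD 2W, -0.08 ± 0.19 in MXD 3W, 0.13 ± 0.05 in N-CE 1W, 0.06 ± 0.07 in N-CE 2W and 0.00 ± 0.24 in N-CE 3W. Of the remaining H2A genes, Hist3h2a was not called at its brighter probe, Hist1h2ac was well above background in both groups in 2 comparisons only, and Hist1h2ae and Hist1h2al in 0.

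H4, the partner of H3 in the nucleosome core, moved with H2A in MXD 2W and stood out again in N-CE 3W. The set of Hist1h4a, Hist1h4d, Hist1h4f and Hist2h4 had means between 0.91 and 0.93 in MXD 2W and between 0.64 and 0.67 in N-CE 3W, and all 4 genes were called higher in both. Its probes of Hist1h4d, Hist1h4f and Hist2h4 had at least 20 bases in common. The Hist1h4a probe had such a stretch only with the dimmer Hist1h4d probe, which does not enter these means. In MXD 1W the set lay between 0.34 and 0.38, in MXD 3W between 0.36 and 0.43, and in N-CE 1W between -0.52 and -0.45, with 0 calls. In N-CE 2W its mean of 0.08 to 0.13 hid a disagreement between the arrays. The values were 0.46 to 0.51 with N-CE in Cy5 and -0.33 to -0.19 with N-CE in Cy3.

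Hist4h4 was called higher in MXD 2W at 0.76 ± 0.17 and stood at 0.63 ± 0.19 in N-CE 3W without a call. Hist1h4i was called in 0 comparisons and ranged from -0.33 ± 0.14 in N-CE 1W to 0.26 ± 0.02 in MXD 3W.

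The medians of H2B and H3 genes were 0.47 and 0.40 in MXD 2W and -0.24 and -0.30 in N-CE 1W, with single genes apart from them. The set of Hist1h2bk, Hist1h2bm and Hist3h2bb-ps had means between 0.46 and 0.49 in MXD 2W and between -0.27 and -0.24 in N-CE 1W, and lay between -0.00 and 0.17 in the other 4 comparisons, with 0 calls. Hist1h2ba, the H2B gene of the male germ line, gave 0.54 ± 0.23 in MXD 2W and -0.24 ± 0.04 in N-CE 1W. The sole H2B gene called was Hist3h2ba, at -0.94 ± 0.12 in N-CE 1W. Hist1h3d and Hist2h3c1, the H3 genes above background, were at 0.42 ± 0.26 and 0.39 ± 0.29 in MXD 2W and at -0.28 ± 0.01 and -0.32 ± 0.09 in N-CE 1W. Hist2h2be had -0.25 ± 0.06 in MXD 2W and -0.04 ± 0.17 in N-CE 1W, and Hist1h2bc 0.28 ± 0.02 and -0.19 ± 0.25.

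In the comparisons with fewer than 3 calls, the highest and lowest genes were as follows. In MXD 3W the called genes Hist1h1b (0.77) and Hist1h2ab (0.71) were followed by Hist1h2ao (0.51), and the lowest were Hist1h1c (-0.17), Hist2h2aa1 (-0.08) and Hist1h2ba (-0.02). In N-CE 2W the highest were Hist2h2bb (0.98 and 0.14 on the 2 arrays), Hist1h2ao (0.25 and 0.59) and Hist1h1a (0.39 and 0.42), and the lowest Hist1h1c (-0.07), Hist2h2be (-0.01) and Hist1h4i (0.05).

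Of the 38 genes, 28 were well above background in both groups of all 6 comparisons, 4 in some of them and 6 in 0. The 6 were Hist1h2ae, Hist1h2al, Hist1h2be, Hist1h2bp, Hist1h2bq and Hist1h3a. Hist1h3a was well above background for MXD but not for VC in MXD 2W and was at least 1.19-fold higher there. In all, 17 genes were called in at least 1 comparison and 15 others were detected but never called. Calls in both directions occurred for 8 genes, namely Hist1h1a, Hist1h1b and 6 of H2A, with the lower call always in N-CE 1W. The shares of all gene names called in any comparison, or in both directions, were not computed. These counts therefore have no background beside them.

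**Figure D3:**
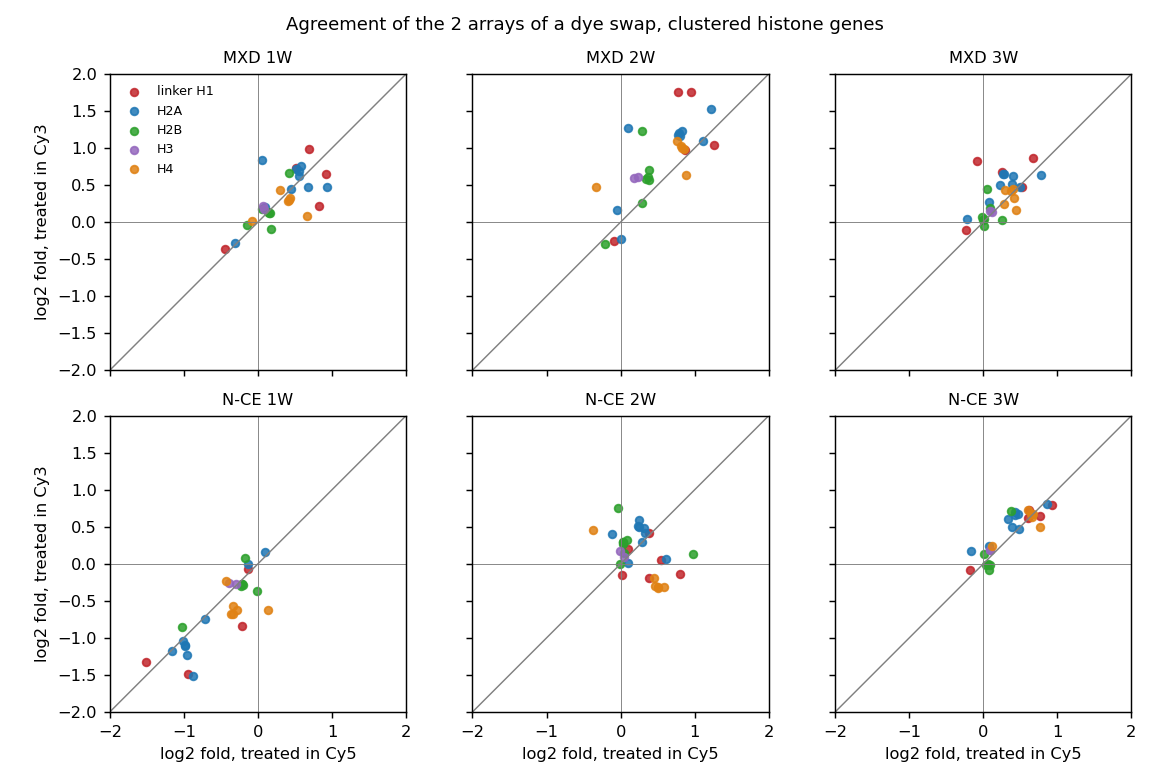
Log2 fold of treated over VC with the treated pool in Cy5 (horizontal axis) against that with the treated pool in Cy3 (vertical axis), for member genes well above background in both groups, 1 panel for each comparison, colours by class. The line marks equal values. In N-CE 1W 25 of 28 genes had the same sign on both arrays and in MXD 2W 26 of 30, whereas in N-CE 2W it was 19 of 31, with all 6 H4 genes on opposite sides of 0.

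The sign of a gene was the same on both arrays for 28 of 30 genes in MXD 1W, 26 of 30 in MXD 2W, 24 of 29 in MXD 3W, 25 of 28 in N-CE 1W, 19 of 31 in N-CE 2W and 23 of 29 in N-CE 3W. Hist2h2ac in MXD 2W and Hist1h2bc in N-CE 3W had a value on 1 array only, because of an outlier spot, and count among the rest. The median SD of a member gene between the arrays lay between 0.08 in N-CE 3W and 0.19 in N-CE 2W. In N-CE 2W the core median of 0.15 was no larger than this spread, which is that of a single gene and not of a median. The core medians of the 2 arrays were 0.24 and 0.26 there. Of 25 core genes, 24 had a mean above 0 and 16 had the same sign on both arrays. The VC channels offered another check, since the MXD and N-CE arrays of a week held the same VC pool. Its signals on the MXD arrays minus those on the N-CE arrays had a median log2 difference of 0.08 for linker genes and -0.01 for core genes in the first week. In the second week these were -0.31 and -0.20, and in the last week -0.27 and -0.11. The fold limits were passed by 0 member genes in the first week, beside 2.09% of all names. They were passed by 2 of 5 linker and 5 of 23 core genes in the second week, beside 12.5%, and by 2 of 5 and 4 of 23 in the last week, beside 12.1%. Those of the second week were Hist1h1b (-1.06), Hist1h2af (-0.82), Hist1h1e (-0.73), Hist1h2bc (-0.60), Hist1h2ao (-0.58), Hist3h2bb-ps (-0.48) and Hist1h2aa (-0.44). All of them except Hist1h2bc and Hist3h2bb-ps were called higher in MXD 2W. How far this bears on their folds was not tested.

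Where 2 probes of a gene could be compared, the pairs that lay closest together had similar means. The means of the 2 probes differed by between -0.11 and 0.06 over the 6 comparisons for Hist1h2af (308 bases apart), Hist1h2bk (66), Hist1h4d (158) and Hist2h2ac (7). The 2 Hist2h2ac probes had 51 bases in common, so they could hardly differ. In each of the other pairs at least 1 probe was annotated with more than 1 RefSeq transcript. Similar means are therefore no check on the signal of a single gene. For Hist1h1d the brighter probe exceeded the probe 1751 bases downstream by between 0.45 and 1.54 in the 4 comparisons in which both were detected. In MXD 2W they gave 1.15 ± 0.15 and -0.40 ± 0.07. For Hist3h2a, the dimmer probe was called higher in MXD 2W at 0.65 ± 0.04, and the brighter probe 567 bases away gave 0.05 ± 0.15.

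Other genes of histone supply and of S phase were read from lists chosen with earlier results of these data known. Of 27 tested genes of S phase and DNA replication, 7 were called higher in MXD 2W and 6 lower in N-CE 1W, with medians of 0.41 and -0.46, beside 6.49% of all tested names called higher in MXD 2W and 2.73% called lower in N-CE 1W. Uhrf1, which maintains DNA methylation at replication, had 1.1 ± 0.21 in MXD 2W and -1.11 ± 0.06 in N-CE 1W. Ccna2, the S phase cyclin A2, had 0.98 ± 0.09 and -1.14 ± 0.11. The lowest genes of the list in MXD 2W were Gins2 (0.02) and Prim1 (0.13), parts of the replication machinery. In MXD 1W, MXD 3W, N-CE 2W and N-CE 3W the list had 0 calls and medians of 0.29, 0.26, 0.19 and 0.25.

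Histone genes outside the clusters are for the most part expressed through the whole cell cycle. Of 10 tested, 3 were called higher in MXD 2W (median 0.35, beside 6.49% of all names) and 2 lower in N-CE 1W (median -0.20, beside 2.73%), and 0 in the other comparisons. H1f0, the linker histone of resting and differentiated cells, was called higher in MXD 2W at 0.95 ± 0.48 and was at -0.23 ± 0.20 in N-CE 1W. Cenpa, the H3 variant of centromeres, was called in both, at 0.87 ± 0.04 and -0.91 ± 0.12. H2afx, the H2A variant that marks DNA breaks, was called lower in N-CE 1W at -0.89 ± 0.23. The lowest in MXD 2W were H1fx (0.06) and H3f3a (0.15).

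Of 17 tested histone chaperones, 1 was called higher in MXD 2W and 2 lower in N-CE 1W, with medians of 0.32 and -0.19, beside the same 6.49% and 2.73% of all names. The single call in MXD 2W is no larger a share than that of all names. In MXD 2W the highest were Anp32e, a chaperone of the variant H2A.Z, at 0.67 ± 0.07 (called) and Asf1b, which hands H3 and H4 to assembly factors, at 0.63, and the lowest Rbbp7 (-0.08) and Nap1l4 (0.07). The pair called lower in N-CE 1W was Chaf1a and Chaf1b, subunits of the factor that loads histones behind the replication fork, at -0.58 and -0.91. Of 16 genes of histone mRNA transcription and end processing, 0 were called in any comparison, and the medians were 0.34 in MXD 2W and -0.09 in N-CE 1W. Within this list, Eri1, a nuclease of histone mRNA ends, had 0.59 and Upf1, which acts in histone mRNA decay, 0.48 in MXD 2W, and the lowest were Lsm10 (-0.41) and Cstf2t (-0.22).

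**Figure D4:**
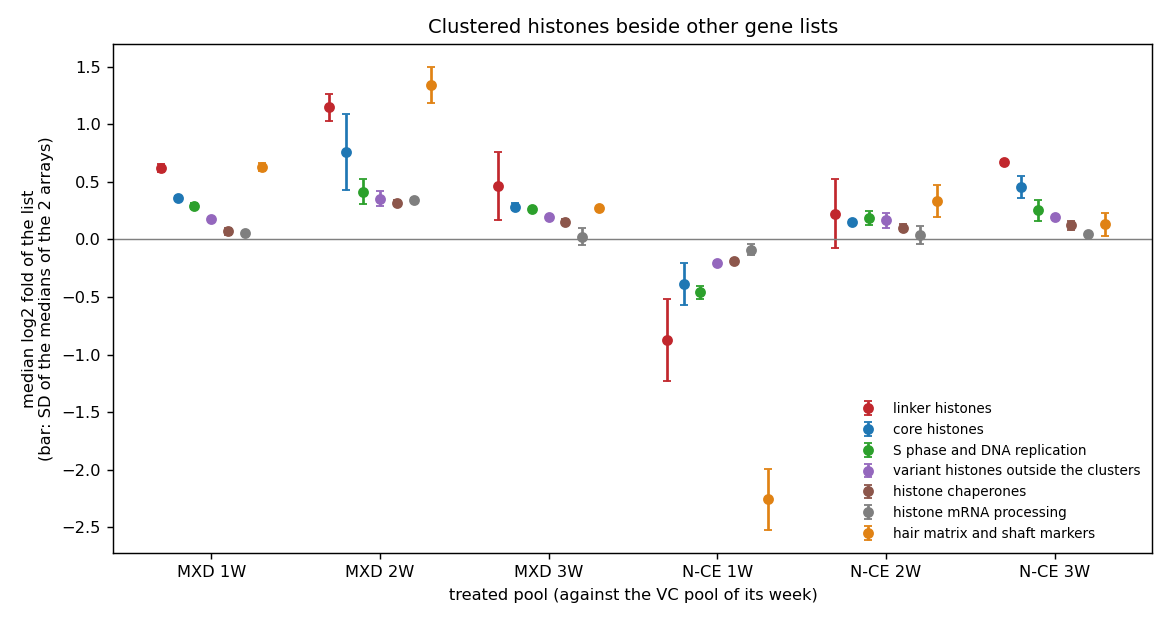
Median log2 fold of treated over VC (vertical axis) of linker and core histone genes and 5 other gene lists in each comparison (horizontal axis), with bars for the SD of the medians of the 2 arrays. In MXD 2W all lists lie above 0, from 0.32 for chaperones to 1.34 for hair matrix and shaft markers. In N-CE 1W all lie below 0, from -2.26 for the hair markers to -0.09 for histone mRNA processing, and in N-CE 3W the linker median of 0.67 stands above the hair marker median of 0.13.

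Markers of other cell types moved with some of these results, and their part in the histone values was not tested. All 8 hair matrix and shaft markers on the array were called higher in MXD 2W, with log2 folds between 1.06 and 1.47, and lower in N-CE 1W, between -2.80 and -1.51. Of all tested names, 6.49% were called higher in MXD 2W and 2.73% lower in N-CE 1W. In MXD 1W, 3 of the 8 were called higher (median 0.63), beside 1.25% of all names. The summed processed signal of the markers was 11764 and 9746 in the N-CE pool of 1W against 62146 and 62967 in its VC pool, and 633853 and 518347 in the MXD pool of 2W against 217962 and 231039 in VC. In N-CE 3W, with 7 histone genes called higher, 0 of the 8 were called, their median was 0.13, and their sums were 214070 and 283369 for N-CE against 225071 and 275269 for VC. In MXD 3W, 0 of 8 were called, with a median of 0.27 and sums of 232940 and 240713 against 201663 and 206415.

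Skeletal muscle markers were called lower for 5 of 6 genes in MXD 1W and 6 of 6 in MXD 2W, between -1.50 and -1.22 in the latter, and for 0 of 6 in the other comparisons. Of all tested names, 1.31% were called lower in MXD 1W and 10.6% in MXD 2W. In MXD 2W the summed signal of the muscle markers was 234458 and 121923 for MXD against 492960 and 398036 for VC. Of 4 tested neutrophil markers, 3 were called higher in MXD 1W and 1 each in MXD 2W and N-CE 1W. The shares of all names called higher in these comparisons were 1.25%, 6.49% and 0.575%. The neutrophil sums in MXD 1W were 15004 and 20867 for MXD against 2665 and 3333 for VC, and Cxcr2 was not well above background there. T cell markers were dim, with sums between 375.0 and 1032 in all channels, and Cd3g was called lower in MXD 2W at -1.37. Skin markers were called lower for 3 of 7 genes in MXD 2W (Krt1, Krt10 and Lor), beside 10.6% of all names, and for 0 in the other comparisons.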

How the data were processed

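Back skin RNA was measured on Agilent two-colour arrays, 12 in all. Per the file headers, Agilent Feature Extraction 12.0.3.1 made the scanner files, while the submitters' processing notes name 11.0.1.1, and probe positions are mm9. The authors deposited, for each spot, a log10 ratio of Cy5 over Cy3, a P value of the scanner software's error model, processed signal intensity after background subtraction and dye normalization, and flags. The deposited value table on the log10 scale was used to settle direction. Ratios were turned to treated over VC, changed to log2, averaged over spots of a probe and then over the 2 arrays, using numpy 2.4.6 and pandas 2.3.3 under Python 3.11.15. Control spots and outlier spots were left out. Where a gene had several probes, the one brightest on average across all 12 arrays stood for it. The P threshold of 0.01 is from the study's methods and the folds of 1.5 and 0.75 are those by which it counted genes. Requiring the P on both arrays and the fold of their mean together was a choice made here.

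The members and gene lists were chosen with earlier results of these data known. The rule for named genes took every linker gene, up to 12 called members a direction and comparison, the 3 highest and 3 lowest members where fewer than 3 were called, and the 2 highest and 2 lowest genes of each companion list in MXD 2W. All other genes given by name were chosen after their values were seen. An alternative used normexp background correction (offset 50) and loess in R 4.3.3 with limma 3.58.1. In all, 11 alternatives were tried. The calculations were tested on simulated data. Columns of values with no sample numbered 0. The depth of an array is not a count, so its precision is limited by the number of arrays.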

Additional observations from a re-analysis of the deposited data

Results flagged for a closer look

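Of the clustered histones, 5 differences between comparisons are given because the median lay on opposite sides of 0 in the 2 comparisons on every array. None of them was tested, since each group was 1 pool. At 1W the core median of MXD exceeded that of N-CE by 0.75 on the log2 scale, and the linker median by 1.495. Both rested on the same VC pool. The core median of N-CE at 1W differed from that at 2W by -0.54 and from that at 3W by -0.84, and the linker median of N-CE at 1W differed from that at 3W by -1.54. Here week and slide cannot be told apart. The hair matrix and shaft markers had medians of 0.63 in MXD 1W, -2.26 in N-CE 1W, 0.33 in N-CE 2W and 0.13 in N-CE 3W, and their part in these differences was not tested.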

How the results depend on the processing

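Under the 11 alternatives 1 median changed sign, that of the linker genes in N-CE 2W, from 0.22 to -0.04 with the treated pool in Cy3 alone. Of the recomputed counts of calls, 121 stayed within 1.5 times of the reported value and 11 did not. The 121 include counts that were 0 both times. Of the recomputed medians, 74 moved by less than the spread between arrays and 22 by more. Medians were not recomputed under the alternatives that changed only the calling rule. The deposited value table, 1 of the alternatives, repeats the same ratios and so could hardly differ. With normexp and loess the linker median was 0.39 in MXD 1W, 0.79 in MXD 2W, 0.15 in MXD 3W, -0.48 in N-CE 1W and 0.33 in N-CE 3W, and the core median was 0.24 in MXD 3W. With genes well above background in 1 group also included, and likewise with every probe, the linker median was 0.57 in MXD 1W and 0.64 in N-CE 3W. On the array with the treated pool in Cy5 alone, the core median was 0.30 in MXD 1W, 0.38 in MXD 2W, 0.26 in MXD 3W, 0.24 in N-CE 2W and 0.36 in N-CE 3W, the linker median was 0.69 in MXD 1W, 0.87 in MXD 2W and 0.61 in N-CE 3W, and 2 genes were called higher in N-CE 2W. On the array with it in Cy3 alone, the core median was 0.28 in MXD 1W, -0.60 in N-CE 1W and 0.26 in N-CE 2W, the linker median was 0.64 in N-CE 3W, and the calls were 8 higher in MXD 1W, 6 higher in MXD 3W, 16 lower in N-CE 1W, 2 higher in N-CE 2W and 13 higher in N-CE 3W. Without the P criterion 8 genes passed as higher in MXD 1W, beside 433 of 17543 names. With a fold of 2, 0 genes remained in MXD 1W, 6 in MXD 2W, 0 in MXD 3W and 0 in N-CE 3W. The counts over all names on single arrays and at a fold of 2 are given with the calls above. The cause of these changes was not tested.

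No paired analysis was possible because each group was 1 pool. Dim genes limit the values, since 6 member genes were well above background in both groups of 0 comparisons.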
